A study of Mus musculus with 4 samples.

Results

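The genes described here mark the cells that line blood and lymphatic vessels. They are 37 genes named in advance by symbol, all of which have a row in the deposited table of 46095 gene symbols. They were measured by sequencing total RNA, depleted of ribosomal RNA, from whole colon of C57BL/6 mice at postnatal day 21. There were 2 libraries from wild-type mice (WT) and 2 labelled Esr2-KO, with the genotype given as Esr2-/-. Esr2 is the gene of estrogen receptor β. The labels name no treatment, sex or deleted part of Esr2 and do not state if 2 libraries of a genotype stem from different mice, so the p-values measure only the spread between these libraries, which may be technical. The design text speaks of triplicates, but the deposited table has columns for these libraries only.

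Endothelial cells form the inner wall of every vessel. They are held together by VE-cadherin and PECAM1, kept alive and patterned by vascular endothelial growth factor (VEGF) and angiopoietin signalling, and specified by ETS and SOXF transcription factors. In the gut they also set which leukocytes enter the tissue, through adhesion molecules such as MAdCAM-1, and the lymphatic vessels among them carry dietary fat and immune cells away from the mucosa.

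Promoter sequence was found in the RefSeq table (GRCm38.p6) for 20 of the 37 genes. Each sequence below is the 200 bases just before an annotated start, 5′ to 3′ on the gene's strand. Tie1 and Egfl7 are shown because they had the smallest p-values of the list, Robo4 as an endothelial guidance receptor that did not pass, and Madcam1 because it varied most between libraries of 1 genotype among the members with more than a few counts. Capitals mark matches on either strand to AGGAAG, a core bound by ETS factors. The second of 3 Egfl7 starts in the table is shown, chosen after its letters were seen.
Tie1 (chr4:118489850-118490049, minus strand): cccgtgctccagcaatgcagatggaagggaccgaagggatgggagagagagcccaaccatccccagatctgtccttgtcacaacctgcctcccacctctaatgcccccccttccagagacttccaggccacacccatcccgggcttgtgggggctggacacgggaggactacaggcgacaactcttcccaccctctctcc
Egfl7 (chr2:26583665-26583864, plus strand): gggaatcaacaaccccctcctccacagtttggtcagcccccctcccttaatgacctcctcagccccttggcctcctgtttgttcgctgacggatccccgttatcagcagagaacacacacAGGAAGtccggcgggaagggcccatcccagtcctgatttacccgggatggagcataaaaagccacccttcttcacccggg
Robo4 (chr9:37401772-37401971, plus strand): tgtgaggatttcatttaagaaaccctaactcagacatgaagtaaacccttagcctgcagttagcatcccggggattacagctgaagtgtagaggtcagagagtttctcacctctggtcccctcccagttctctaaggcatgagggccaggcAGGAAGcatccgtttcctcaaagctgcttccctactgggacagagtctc
Madcam1 (chr10:79664359-79664558, plus strand): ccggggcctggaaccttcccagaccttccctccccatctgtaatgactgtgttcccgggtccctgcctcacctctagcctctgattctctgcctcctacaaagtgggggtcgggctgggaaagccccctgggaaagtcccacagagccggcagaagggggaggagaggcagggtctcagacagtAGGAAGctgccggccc

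The AGGAAG match of Egfl7 begins at base -80, that of Robo4 at base -49 and that of Madcam1 at base -16, counted back from the start. The Tie1 window holds no match. In the GENCODE M21 annotation the Tie1 gene reaches to base 118490061, so its whole window lies inside that gene model. Egfl7 begins there at 26580014, before its window, and Robo4 at 37401897, within its window. The motif stood in 10 of 25 promoter windows of members (40.0%) and in 24.7% of the 32851 windows of the whole table. These matches describe letters only. Egfl7 also hosts miR-126, an endothelial microRNA, in its transcript. The mature arm of the 3′ side is printed with its seed, bases 2 to 8, in capitals.
mmu-miR-126a-3p (chr2:26591402-26591423, plus strand): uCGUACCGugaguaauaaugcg

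The libraries held 30826790 to 33709643 counts, of which the 37 genes together took 0.0751%, 0.0798%, 0.0823% and 0.0663% (WT 1, WT 2, Esr2-KO 1 and Esr2-KO 2, the order used throughout). Esr2-KO 2 carried 19.75% of its counts on 33 genes of pancreatic acinar cells, against 0.258% to 0.404% in the other libraries. Values are therefore given as CPM, counts scaled by the TMM-adjusted library total, which allows for a few very abundant genes, and results are repeated without this library. Esr2 itself had 21, 13, 6 and 16 counts over the whole gene, too few to check the genotype labels. Markers of colon epithelium summed to between 12248 and 14028 CPM.

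No endothelial gene of the list passed the test for a difference between Esr2-KO and WT colon. Of 36 members with enough counts to be tested, 0 rose and 0 fell at an adjusted p under 0.05 by the quasi-likelihood test of edgeR, Benjamini-Hochberg adjusted over all genes, where 2.69% of all 17169 genes tested passed, 1.3% higher and 1.39% lower (462 genes, 165 of 17907 tested without WT 1 and 1804 of 17984 without Esr2-KO 1). At an unadjusted p under 0.05 the members numbered 2, Tie1 and Egfl7, or 5.56%, against 20.6% of all genes tested. DESeq2, with its own size factors, called 1 member, Tie1, both on every gene with a count (adjusted p = 0.0402) and on the 17169 genes of the edgeR fit (0.0273). DESeq2 also called far more of all genes than edgeR. Among genes given an adjusted p it called 1682 of 17105 in the first run and 1737 of 16503 in the second. Limma-voom called 0, and edgeR called 0 when any 1 library was left out, Esr2-KO 2 included. Both Esr2-KO libraries lay on 1 side of both WT libraries for 16 of the 36 (44.4%), and for 54.7% of all genes tested.

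The fold changes of the members were small, and 32 of the 36 were under 0.5 on the log2 scale in either direction. For 30 of the 36 the 95% interval of the difference lay within 2-fold both ways, so that a change of that size lay outside the interval in these genes. The 36 log2 fold changes had a median of 0.15, with 31 above 0 and 5 below, beside a median of -0.00 over all genes tested. The median was 0.05 without WT 1, 0.26 without WT 2 and 0.18 without Esr2-KO 2. With library totals in place of TMM it was -0.01, with 17 members above 0 and 19 below, while the median of all genes moved to -0.17, so that the members stood 0.15 above all genes under both scalings. In bulk RNA, a change in the share of endothelial cells and a change in an RNA per cell, fewer cells and less RNA included, cannot be told apart.

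**Figure D1:**
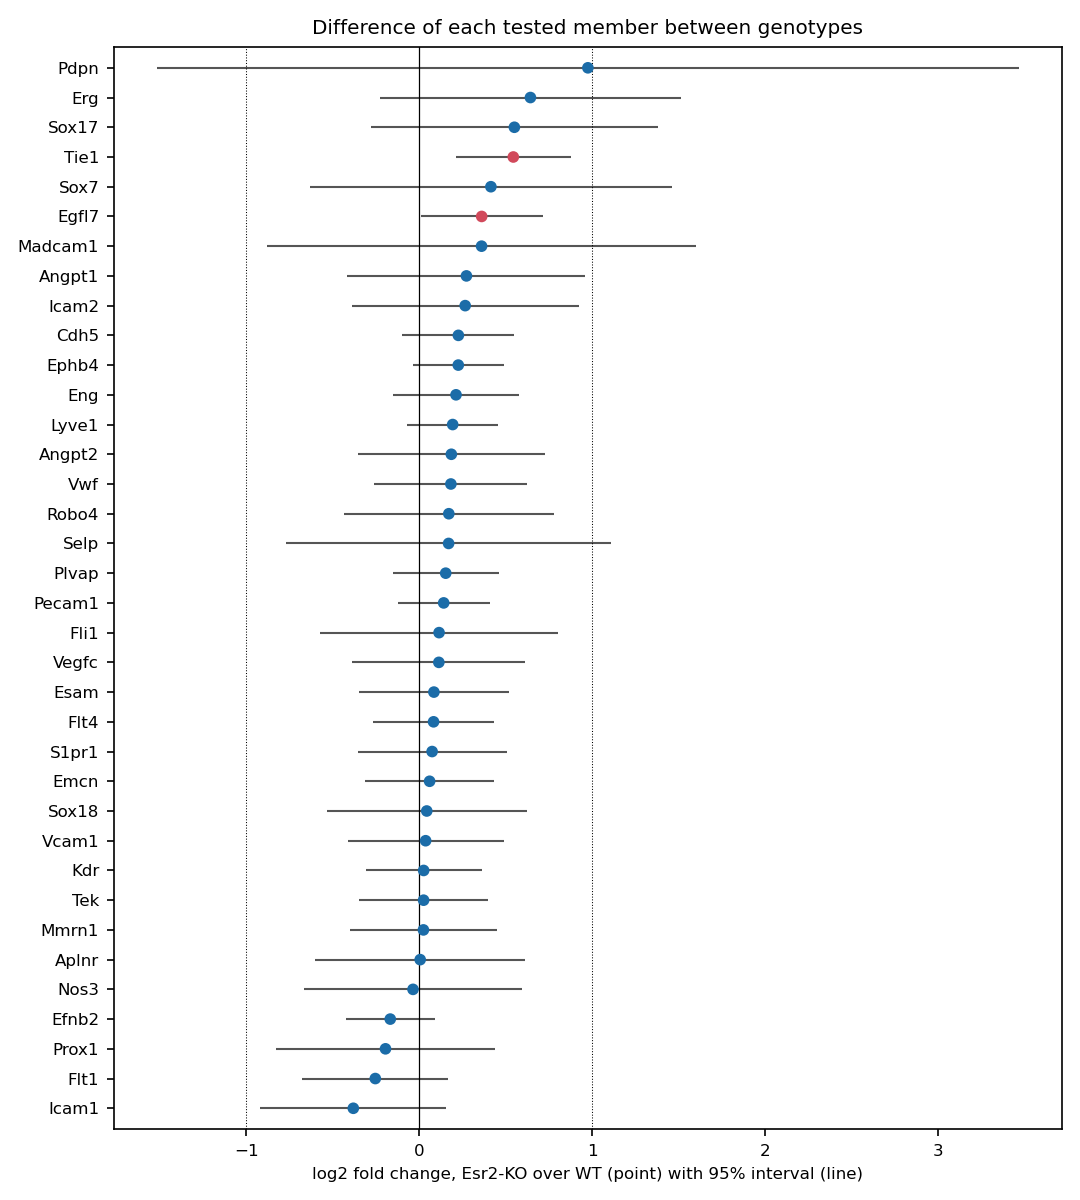
Log2 fold change of Esr2-KO over WT for the 36 tested members (points, n = 2 libraries per group), with 95% intervals from edgeR's fit (lines); red points have an unadjusted p under 0.05 and dotted lines mark 2-fold. Most intervals take in 0, those of Tie1 and Egfl7 lie above it, and none of the 36 passed after adjustment over all genes.

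Genes of the vessel wall itself were similar in level in the 4 libraries. Pecam1, the adhesion protein used as the standard marker of endothelium, stood at 61.0 and 68.0 CPM in WT against 70.4 and 71.9 CPM in Esr2-KO. On the log2 scale it differed by 0.14 ± 0.11 (SE, n = 2 per group), with a 95% interval from -0.12 to 0.41 and an edgeR adjusted p of 0.515. Cdh5, which encodes VE-cadherin of the junctions between endothelial cells, measured 24.4 and 27.0 against 31.1 and 29.0 CPM (0.23 ± 0.14, interval -0.10 to 0.55). In both genes the Esr2-KO libraries were the higher ones, by less than the interval of the fit. Plvap, the diaphragm protein of fenestrated capillaries such as those of the gut mucosa, had 53.5 and 64.1 CPM in WT against 67.0 and 63.8 CPM in Esr2-KO, and the groups overlapped.

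Eng, a coreceptor for BMP9, stood at 30.0 and 32.0 against 31.9 and 39.9 CPM. Emcn, a sialomucin of capillaries and veins, was the steadiest of the wall genes, with 15.6 and 15.7 against 16.8 and 15.9 CPM. Esam, a tight junction protein of endothelium and platelets, gave 12.8 and 15.3 against 14.0 and 15.8 CPM, and the guidance receptor gene Robo4, whose promoter is printed above, 6.44 and 9.72 against 9.24 and 8.95 CPM. WT 1 was the lowest library in all 7 of these genes, in Emcn only by a trace. Vwf, the platelet-binding factor stored in endothelial granules, followed that order with 13.7 and 17.7 against 18.6 and 17.1 CPM. Nos3, the endothelial nitric oxide synthase, measured 6.17 and 5.49 against 4.79 and 6.60 CPM, but 32.3% of its exonic length is shared with Atg9b and Gm15587 on the other strand, and no source used here states whether the counting used strand.

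Egfl7, a secreted factor that guides vessel tube formation, was 1 of the 2 members with an unadjusted p under 0.05. It had 585 and 591 counts in WT against 752 and 541 in Esr2-KO, or 16.1 and 17.0 against 22.0 and 20.5 CPM. Both Esr2-KO libraries were higher, with a log2 fold change of 0.36 ± 0.15, a 95% interval from 0.01 to 0.71 and an edgeR adjusted p of 0.233. The adjusted p ran from 0.212 to 0.722 over the alternatives. Of its exonic length 11.2% overlaps other genes, among them Agpat2 on the other strand. The row for Mir126a held 4, 3, 1 and 3 counts, and no level of the mature microRNA is read from a library of long RNA.

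**Figure D2:**
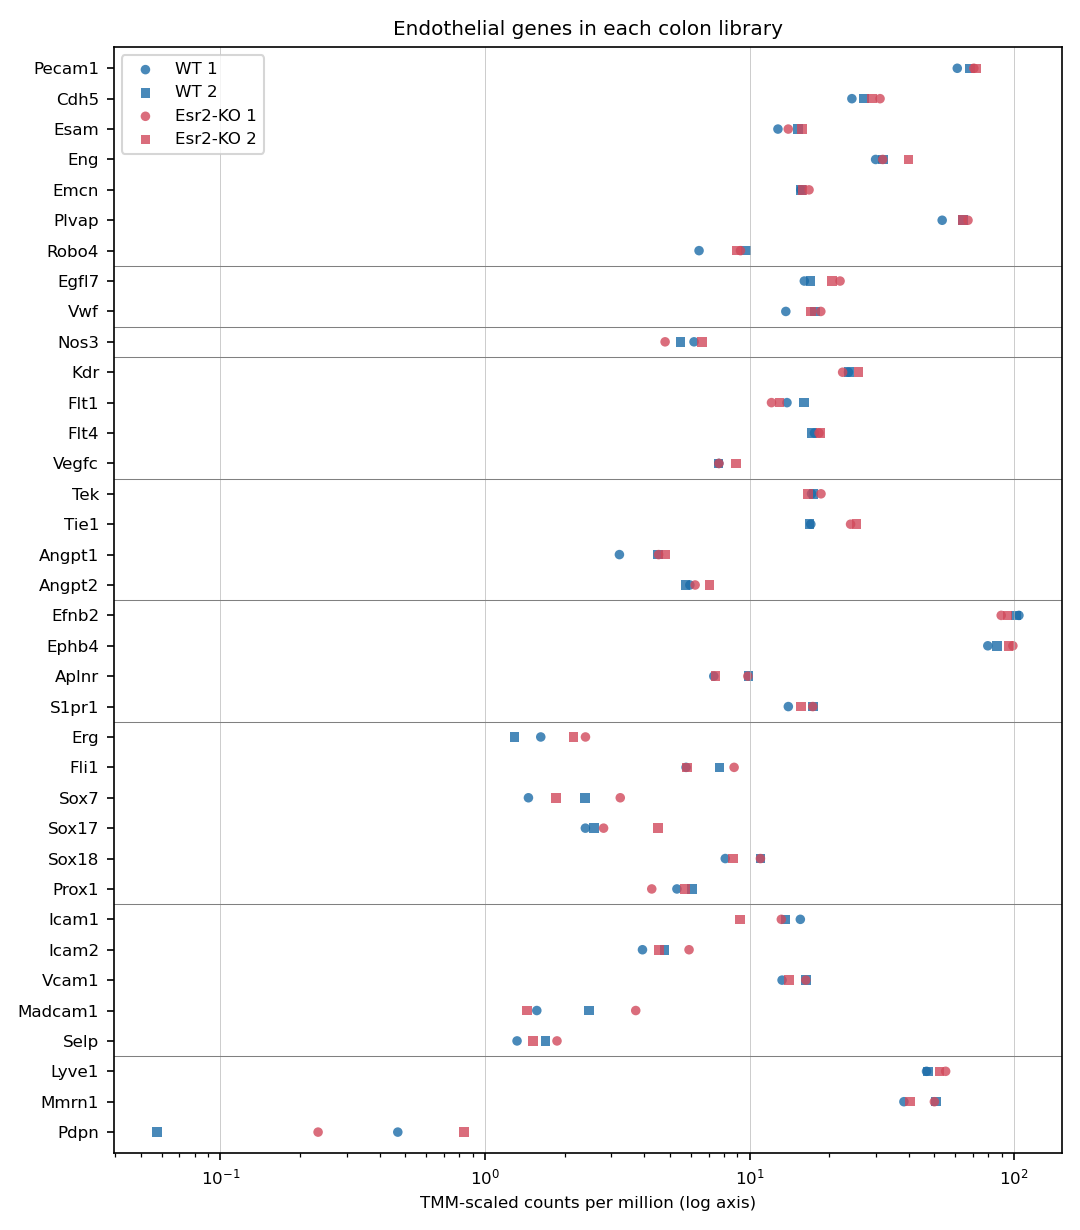
TMM-scaled CPM (log axis) of 36 members in each of the 4 libraries, with WT in blue, Esr2-KO in red, first replicates as circles and second ones as squares; lines separate groups of related function, and Sele, with at most 1 count per library, is left out. The colours lie apart and close within each colour for Tie1, and are mixed for most other genes.

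VEGF acts through 3 receptors, of which KDR carries most of the growth signal, FLT1 binds VEGF tightly and limits it, and FLT4 answers to VEGF-C on lymphatic endothelium. Kdr stood at 23.7 and 23.7 CPM in WT against 22.5 and 25.8 CPM in Esr2-KO (log2 fold change 0.03 ± 0.14, interval -0.31 to 0.36). Flt4 measured 17.6 and 17.2 against 18.3 and 18.5 CPM, and its ligand gene Vegfc 7.65 and 7.62 against 7.66 and 8.88 CPM. These 3 genes differed little between any of the libraries. Flt1 was among the 5 members with a negative fold change, with 13.9 and 16.0 CPM in WT against 12.1 and 13.0 CPM in Esr2-KO. Both Esr2-KO libraries were lower, by -0.25 ± 0.18 (interval -0.68 to 0.17), and the edgeR adjusted p was 0.464.

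The angiopoietin axis held the member with the smallest p. Tie1, an orphan receptor that pairs with TIE2 and shapes its response to angiopoietins, had 619 and 587 counts in WT against 824 and 669 in Esr2-KO. This corresponds to 17.0 and 16.9 CPM in WT against 24.1 and 25.4 CPM in Esr2-KO. The 2 WT libraries lay within 0.01 of each other on the log2 scale and the 2 Esr2-KO libraries within 0.08, and the groups did not overlap. This was a log2 fold change of 0.54 ± 0.14 (SE, n = 2 per group), a 1.46-fold difference with a 95% interval from 1.16 to 1.83. The edgeR adjusted p was 0.0939, above the threshold, and ran from 0.0273 with DESeq2 on the same genes to 0.411 with library totals, where the log2 fold change was 0.38.

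The partner receptor TIE2, encoded by Tek, did not show such a gap. Tek had 17.2 and 17.5 CPM in WT against 18.6 and 16.6 CPM in Esr2-KO (0.03 ± 0.16, interval -0.35 to 0.40). Angpt1, the ligand that activates TIE2, stood at 3.22 and 4.51 against 4.53 and 4.82 CPM. Angpt2, the context-dependent antagonist released by activated endothelium, stood at 5.95 and 5.72 against 6.23 and 7.06 CPM. Neither ligand passed, with edgeR adjusted p values of 0.638 and 0.687, and 14.2% of the exonic length of Angpt1 overlaps Gm17473 on the other strand.

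Ratios of counts within a library do not depend on how libraries are scaled. Pairs were chosen after the values were seen and are given without a test. The ratio of Tie1 to Tek counts was 0.994 and 0.965 in WT and 1.29 and 1.53 in Esr2-KO, and that of Tie1 to Pecam1 0.279 and 0.248 against 0.342 and 0.353. In both ratios each Esr2-KO library lay above each WT library. The ratio of Flt1 to Kdr, the limiting receptor to the signalling one, was 0.586 and 0.676 in WT and 0.538 and 0.503 in Esr2-KO, while that of Flt4 to Kdr (0.744 and 0.724 against 0.814 and 0.719) overlapped. Angpt2 to Angpt1 gave 1.85 and 1.27 against 1.37 and 1.46, again with overlap. Lyve1 to Pecam1, a lymphatic marker over the general one, gave 0.765 and 0.694 against 0.782 and 0.727, and the groups overlapped.

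**Figure D3:**
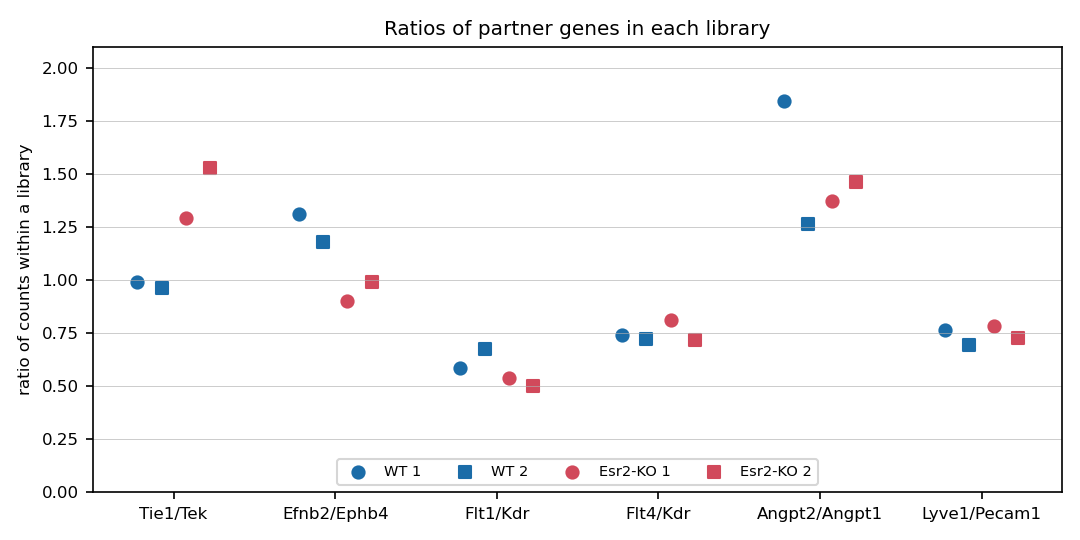
Ratio of the counts of 2 genes within each library, for 6 pairs, with WT in blue and Esr2-KO in red. The groups lie apart for Tie1/Tek, Efnb2/Ephb4 and Flt1/Kdr and overlap for Flt4/Kdr, Angpt2/Angpt1 and Lyve1/Pecam1; no ratio was tested.

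Ephrin-B2 marks arteries and its receptor EphB4 marks veins, and both are also made by gut epithelium. They were among the most abundant members, and lay in opposite directions. Efnb2 had 104 and 102 CPM in WT against 89.4 and 94.3 CPM in Esr2-KO (-0.17 ± 0.11), and Ephb4 79.5 and 86.3 against 98.9 and 95.1 CPM (0.23 ± 0.11). The groups of both genes did not overlap, while their edgeR adjusted p values were 0.428 and 0.303. The ratio of Efnb2 to Ephb4 counts was 1.31 and 1.18 in WT and 0.903 and 0.991 in Esr2-KO. Aplnr, the apelin receptor of venous and sprouting endothelium, stood at 7.32 and 9.92 against 9.85 and 7.43 CPM. S1pr1, the sphingosine-1-phosphate receptor that steadies vessel junctions, stood at 14.0 and 17.3 against 17.3 and 15.7 CPM. In both of these genes WT 1 and Esr2-KO 2 were the low libraries.

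Among the transcription factors, the low-count Erg had the largest difference. Erg, an ETS factor that maintains endothelial identity, had 59 and 45 counts in WT against 82 and 57 in Esr2-KO, or 1.62 and 1.29 against 2.40 and 2.16 CPM. Its log2 fold change was 0.64 ± 0.36, with an interval from -0.23 to 1.52 and an edgeR adjusted p of 0.369. Fli1, the related ETS factor that blood cells also express, stood at 5.75 and 7.70 against 8.74 and 5.80 CPM, and here the groups overlapped. The SOXF genes act in arterial and lymphatic specification. Sox17, the arterial one, had 2.40 and 2.59 against 2.81 and 4.51 CPM (0.55 ± 0.35), with the gap carried by Esr2-KO 2, and 16.8% of its exonic length overlaps Gm37587. Sox18 stood at 8.10 and 11.0 against 11.0 and 8.65 CPM and Sox7 at 1.46 and 2.39 against 3.25 and 1.86 CPM, both with overlap. Prox1, the master factor of lymphatic identity, which enteroendocrine cells also use, measured 5.31 and 6.07 against 4.27 and 5.69 CPM (-0.19 ± 0.26).

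The adhesion molecules that admit leukocytes did not move as a group. Icam1, the ligand of leukocyte integrin LFA-1, had 15.6 and 13.7 CPM in WT against 13.2 and 9.22 CPM in Esr2-KO, the most negative fold change of the list (-0.38 ± 0.23, interval -0.92 to 0.16, edgeR adjusted p = 0.390). Its exons overlap Gm47079 over 11.7% of their length. Icam2, a constitutive endothelial relative, stood at 3.94 and 4.77 against 5.91 and 4.55 CPM. Vcam1, the ligand of integrin α4β1, stood at 13.3 and 16.4 against 16.3 and 14.1 CPM (0.04 ± 0.19). P-selectin, encoded by Selp, had 48 and 59 counts in WT against 64 and 40 in Esr2-KO. Gm16548 and Gm16587 on the other strand overlap 14.1% of the exonic length of Selp. E-selectin, encoded by Sele, had 1, 0, 1 and 1 counts. A count of 3, the limit that a count of 0 allows, corresponds to 0.0826 to 0.114 CPM in these libraries, so Sele lay below it in each and no fold is given.

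Madcam1, the gut homing receptor for lymphocytes that carry integrin α4β7, varied more within each genotype than between them. It had 57 and 86 counts in WT against 127 and 38 in Esr2-KO, or 1.57 and 2.47 against 3.71 and 1.44 CPM. Esr2-KO 1 was the highest library and Esr2-KO 2 the lowest. The log2 fold change was 0.36 ± 0.52 and turned to -0.48 without Esr2-KO 1. Esr2-KO 1 was also the highest library, but with WT 1 and not Esr2-KO 2 the lowest, for some, not all, genes of the list of leukocyte ligands. Among these were the homing chemokine receptor Ccr7 (1.05, 2.16, 4.74 and 1.78 CPM) and the follicular B cell receptor Cxcr5 (0.661, 1.87, 4.97 and 2.73 CPM). Of the genes of the α4β7 chains, Itgb7 had the same order of libraries as Madcam1, at 7.98, 9.03, 11.0 and 5.54 CPM. Itga4, highest in WT 1 and lowest in Esr2-KO 2, stood at 23.3, 20.3, 19.8 and 15.1 CPM. The part of these genes in the level of Madcam1 was not tested.

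Several other members, like Madcam1, were higher in WT 2 than in WT 1 and in Esr2-KO 1 than in Esr2-KO 2. WT 2 exceeded WT 1, and Esr2-KO 1 exceeded Esr2-KO 2, by more than 0.2 on the log2 scale in 9 of 36 members (25.0%), and in 10.3% of 17009 genes with counts in all libraries. The 9 were Sox7, Sox18, Fli1, Icam2, Vcam1, Madcam1, Selp, Mmrn1 and Aplnr. Across the 36 members, the log2 ratio of WT 2 to WT 1 and that of Esr2-KO 1 to Esr2-KO 2 had a Pearson correlation of 0.76, which was 0.53 without the low-count gene Pdpn and 0.06 over all genes. The 2 directions follow those seen in Madcam1, itself 1 of the 36 members. Genes measured in the same libraries are also not independent, so the share and the correlation are descriptions. Tie1, Flt4, Efnb2 and Lyve1 had both ratios within 0.08 of 0. The 2 ratios of Sox17 (0.11 and -0.69), Prox1 (0.19 and -0.41), Eng (0.09 and -0.33) and Icam1 (-0.19 and 0.52) were opposite in sign.

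**Figure D4:**
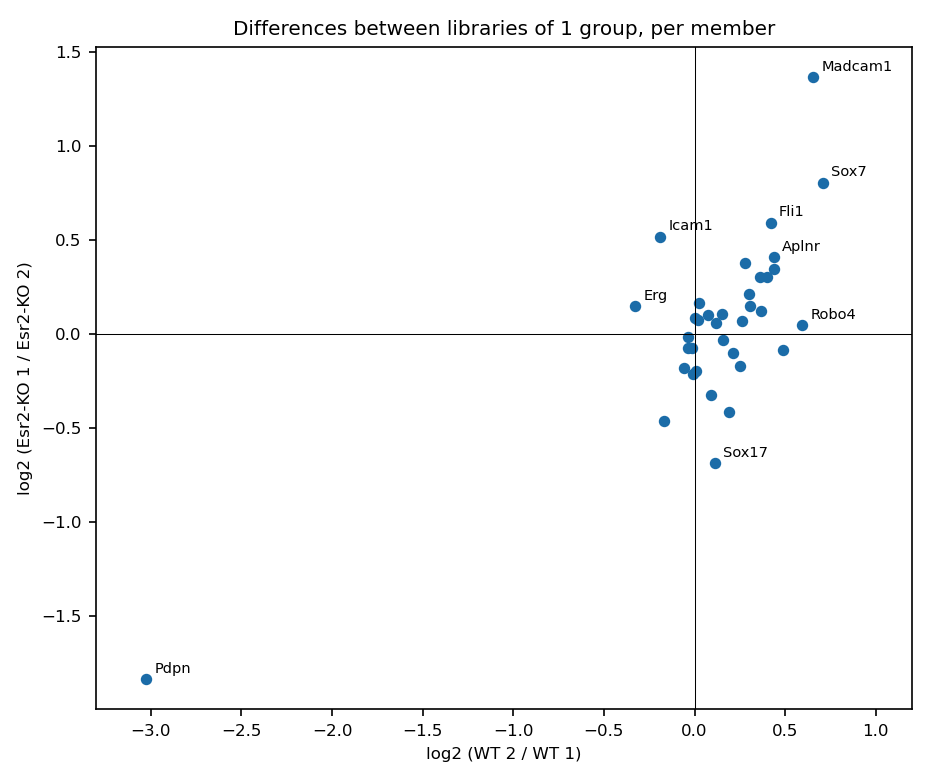
For each of 36 members, the log2 ratio of WT 2 to WT 1 (horizontal) against that of Esr2-KO 1 to Esr2-KO 2 (vertical). Madcam1, Sox7 and Fli1 lie at the upper right, high in WT 2 and Esr2-KO 1, and Pdpn, with 2 to 22 counts, lies alone at the lower left.

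No lymphatic marker passed the test. Lyve1, the hyaluronan receptor of lymphatic capillaries, which some macrophages also carry, had 46.7 and 47.2 CPM in WT against 55.1 and 52.3 CPM in Esr2-KO. Both Esr2-KO libraries were higher, with a log2 fold change of 0.19 ± 0.11, an interval from -0.07 to 0.46 and an edgeR adjusted p of 0.373. Mmrn1, a secreted protein of lymphatic endothelium and platelets, stood at 38.3 and 50.6 against 50.0 and 40.5 CPM, with overlap. Pdpn, encoding podoplanin of lymphatic endothelium and reticular fibroblasts, had only 17, 2, 8 and 22 counts, although Lyve1 and Mmrn1 had over 1000 in each library, and its fold change of 0.98 ± 1.04 is not interpretable at this depth.

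Per kilobase of exon (union of GENCODE M21 exons on GRCm38), Plvap had the highest mean level of the 37, at 31.2 CPM per kilobase. Ephb4 (19.4), Lyve1 (17.2), Efnb2 (14.2) and Pecam1 (10.9) followed, on the same scale. Between libraries these 5 kept apart except that the range of Ephb4, 17.1 to 21.3, overlapped that of Lyve1, 16.0 to 18.9. Among the receptors, Tie1 (4.24) and Tek (3.71) lay above Kdr (2.65), Flt4 (2.18) and Flt1 (1.02) in mean level per kilobase. In WT the range of Tie1, 3.43 to 3.47, lay below that of Tek, 3.64 to 3.71, and in Esr2-KO the range of Tie1, 4.90 to 5.16, lay above that of Tek, 3.53 to 3.95. Of the transcription factors Sox18 (5.97) and Fli1 (2.01) lay highest, and Sox7, Sox17, Prox1 and Erg lay between 0.539 and 0.678. At the foot of the list stood Selp (0.363), Pdpn (0.219) and Sele (0.00813).

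Partners of these pathways outside the list were counted from lists of named genes. Of 28 tested partners of VEGF, angiopoietin, apelin, sphingosine phosphate and BMP9 signalling 0 passed, with a median log2 fold change of 0.14. The lowest p values belonged to the VEGF and semaphorin coreceptor Nrp2 (-0.53 ± 0.16, edgeR adjusted p = 0.143) and the adrenomedullin receptor Calcrl (-0.45 ± 0.18, edgeR adjusted p = 0.234). Of 29 other pan-endothelial genes 0 passed, with a median of 0.12, led by the flow-induced factor Klf2 (0.65 ± 0.15, edgeR adjusted p = 0.0714) and the surface sialomucin Cd34 (0.39 ± 0.11, 0.129). Cldn5, the claudin of endothelial tight junctions, had only 2 counts in each WT library and 0 in each Esr2-KO library. Of the 20 protein-coding genes around it 16 had under 100 counts over the 4 libraries together, the widely used Hira and Mrpl40 among them, so its count is not read as its level. Among members, the most such neighbours stood around Aplnr and Angpt2 (12 of 20 each) and around Flt4, Tek and Pdpn (11 of 20 each). Whether this touches the levels given for those members was not tested. Of 14 arterial and Notch genes 1 rose, the Notch ligand Dll1, which intestinal secretory progenitors also express, from 7.71 and 12.1 CPM to 23.3 and 23.6 CPM (1.25 ± 0.24, edgeR adjusted p = 0.0496). Of its exonic length 20.5% overlaps A930024N18Rik on the other strand. The call of Dll1 ended without WT 1 (adjusted p = 0.151) and with DESeq2 size factors (0.0501), upper-quartile factors (0.0544) or a filter of 1 CPM (0.0510). The endothelial Notch ligand Dll4 stood at 11.4 and 12.6 against 17.5 and 15.5 CPM, with an adjusted p of 0.203. Of 15 tested venous, lymphatic and high endothelial genes 0 passed, and Adamts3, a protease that helps to activate VEGF-C (-1.25 ± 0.46), and the scavenger receptor Stab1 (0.34 ± 0.13) had the smallest p values.

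On the other side of the adhesion molecules, 0 of 14 genes of leukocyte ligands and homing receptors passed, with a median of -0.08, and Cxcr5 (1.61 ± 0.56, edgeR adjusted p = 0.177) and Itgb1 (-0.39 ± 0.16, 0.222) led them. Of 11 tested inducers of adhesion molecules 0 passed, led by the NF-kB subunit Rela (0.48 ± 0.13, edgeR adjusted p = 0.117) and the cytokine Il1b (-1.56 ± 0.50, 0.149). Tnf, Lta and Ltb, the cytokines that induce Madcam1 and Vcam1, are listed at 0 in every library. They are neighbours on chromosome 17, and 15 of the 20 protein-coding genes around Tnf are listed at 0 as well, among them Bag6, Ddx39b and Csnk2b, which most cells use. The zeros are therefore not read as levels of these cytokines.

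Around the endothelium, 1 mural marker fell. Rgs5, a regulator of G protein signalling that marks pericytes and vascular smooth muscle, had 443 and 400 CPM in WT against 171 and 141 CPM in Esr2-KO. Both Esr2-KO libraries lay far below both WT libraries, with a log2 fold change of -1.44 ± 0.16 (SE, 2 libraries per group) and an edgeR adjusted p of 0.0196. The call held with an adjusted p of at most 0.0297 in every alternative run, which included each library left out. The other 10 markers of that list did not pass. The median of the 11 was -0.09, with 4 above 0 and 7 below. After Rgs5 the smallest p values belonged to Kcnj8 (-0.41 ± 0.23, edgeR adjusted p = 0.358) and Rgs4 (-0.31 ± 0.18, 0.379). Pdgfrb, the receptor by which pericytes are recruited, stood at 25.5 and 29.2 against 28.6 and 34.2 CPM, and the pericyte proteoglycan Cspg4 at 12.7 and 11.1 against 8.57 and 13.1 CPM. Red blood cell markers, whose 6 tested genes did not pass, summed to 14.5 and 79.2 CPM in WT and to 123 and 167 CPM in Esr2-KO, and WT 1, the lowest library in most vessel wall genes, was also the lowest here. Their part in the levels of the endothelial genes was not tested.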

How the data were processed

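Colon RNA of 2 WT and 2 Esr2-KO libraries was compared. HISAT2 and the genome mm10 are named in the submitters' processing notes. How reads were counted, with which annotation and strand setting, is not stated in those notes. The deposited values are raw, whole-number counts for each gene symbol. All 17169 genes kept by filterByExpr (minimum count 10, minimum total 15) were fitted with edgeR 4.0.16 in R 4.3.3 (TMM, estimateDisp, glmQLFit, glmQLFTest, two-sided, 2 residual degrees of freedom), and p-values were adjusted by Benjamini-Hochberg over all of them, with 0.05 as the threshold. Standard errors come from the F statistic, and 95% intervals from the t distribution with the fit's degrees of freedom. Alternatives used DESeq2 1.42.0, limma-voom 3.58.1, other scalings and filters, a replicate block and omitted libraries. The members, lists and alternatives were chosen with earlier results of these data known. All members were reported, and per other list the genes past the threshold or otherwise the 2 with the smallest p. Dll4, Pdgfrb, Cspg4, Kcnj8, Rgs4, Ccr7, Itga4, Itgb7, Pnlip and Cldn5 were named after their values were seen. So were Tnf, Lta and Ltb and all neighbours given. Coordinates and exon lengths are from GENCODE M21 (GRCm38, the build of mm10). Counts of WT replicates differed beyond sampling noise (chi-square 5.21 per degree of freedom over 36 members), as did those of Esr2-KO (6.71). On simulated counts of this design over 16927 genes, 29 of 99 genes changed 2-fold and 94 of 98 changed 4-fold were called. Every simulated gene had the common dispersion of the fit, a coefficient of variation of 0.233 between libraries. These rates are therefore not read as those of the members, whose own spread differs.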

Additional observations from a re-analysis of the deposited data

How the results depend on the processing

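No setting of edgeR or limma-voom called a member, and DESeq2 called 1 (Tie1, log2 fold change 0.55), both on every gene with a count and on the genes kept by the edgeR filter. The members' median log2 fold change was -0.013 with library totals and ran from 0.051 to 0.26 over the omitted libraries. The number of all genes called was 695 with library totals (208 higher and 487 lower, against 223 and 239 with TMM), 1916 with edgeR and no low-count filter, 1682 with DESeq2 on every gene with a count, 1737 with DESeq2 on the 17169 genes of the edgeR fit, and from 165 to 1804 over the omitted libraries. The cause was not tested. The labels give same-numbered libraries only a shared number. Their deviations from the group means correlated at -0.064 over all genes and at -0.742 over the tested members. With 2 libraries per group these correlations cannot show whether same-numbered libraries were paired. With the replicate block 0 members and 490 genes were called, and 343 of these were among the 462. Some members changed sign, none of them called on either side. With library totals these were Aplnr (-0.14), Emcn (-0.10), Esam (-0.085), Fli1 (-0.021), Flt4 (-0.082), Kdr (-0.15), Mmrn1 (-0.12), Pecam1 (-0.023), Plvap (-0.0059), S1pr1 (-0.081), Sox18 (-0.10), Tek (-0.13), Vcam1 (-0.12) and Vegfc (-0.060), and with upper-quartile factors Aplnr (-0.015). Members that changed sign without 1 library, with their range over the 4 omissions, were Aplnr (-0.21 to 0.26), Esam (-0.036 to 0.24), Fli1 (-0.21 to 0.38), Kdr (-0.070 to 0.13), Madcam1 (-0.48 to 0.88), Mmrn1 (-0.16 to 0.26), Nos3 (-0.28 to 0.18), Pdpn (-0.17 to 3.11), Prox1 (-0.41 to 0.0041), Robo4 (-0.095 to 0.51), S1pr1 (-0.070 to 0.25), Sox18 (-0.16 to 0.30), Sox7 (-0.044 to 0.82), Tek (-0.056 to 0.11) and Vcam1 (-0.11 to 0.21). The settings for Rgs5, Dll1 and Pi16, and DESeq2 on the genes of the edgeR fit, were added after the data were seen. The intervals of Madcam1, Selp, Erg, Sox7, Sox17 and Pdpn, each with at most 127 counts in a library, took in 2-fold changes, and the part of depth in their width was not tested.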

Other observations

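Among markers of other cell types of the colon wall, the fibroblast list had 1 of 11 tested genes past the threshold, Pi16, a marker of adventitial fibroblasts around vessels. It rose from 5.09 and 5.17 CPM in WT to 13.0 and 26.4 CPM in Esr2-KO (log2 fold change 1.94 ± 0.34, edgeR adjusted p = 0.0424), and did not pass without WT 1 (0.155), without WT 2 (0.112) or with limma-voom (0.0646). The median of that list was 0.28, with 6 genes above 0 and 5 below. Of 15 leukocyte and macrophage genes 0 passed, led by Cd68 (0.55 ± 0.17, edgeR adjusted p = 0.138) and the tissue macrophage receptor Folr2 (0.63 ± 0.20, 0.144). Of 8 smooth muscle genes 0 passed, with Cnn1 at -0.23 ± 0.22 and Tagln at 0.23 ± 0.24, and of 9 epithelium genes 0 passed, with Krt20 at -0.65 ± 0.23 and Cdh1 at 0.42 ± 0.18. Only 2 of 9 platelet genes could be tested, Gp6 (1.94 ± 0.82) and Itga2b (0.13 ± 0.37), and neither passed. Among red blood cell genes Hbb-bs was at 1.65 ± 0.65 and Hbb-bt at 1.82 ± 0.72, with an edgeR adjusted p of 0.219 for each. Of 21 tested pancreatic acinar genes 1 passed, Spink1 (1.30 ± 0.16, edgeR adjusted p = 0.0204), which stood at 120 and 138 CPM in WT against 286 and 349 CPM in Esr2-KO. All 21 had a fold change above 0, with a median of 11.4 on the log2 scale. The groups did not overlap in 20 of them, and in 54.7% of all genes tested. Pnlip, for one, had 8.34 and 2.21 CPM in WT against 61.8 and 31807 CPM in Esr2-KO (11.6 ± 2.85, edgeR adjusted p = 0.0885).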
